A study of Homo sapiens with 12 samples.

Results

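miR-34a, miR-192, miR-194 and miR-215 are miRNAs whose genes are induced by the tumour suppressor p53, and miR-192, miR-194 and miR-215 are also abundant in intestinal epithelium. Their strands were followed here in HCT116, an established cell line from a human colorectal carcinoma. The set was chosen by name and holds 5 of the 1346 miRNA entries in the count tables: hsa-miR-34a-5p, hsa-miR-34a-3p, hsa-miR-192-5p, hsa-miR-194-5p and hsa-miR-215-5p. Of these, 4 passed the filter on low counts, as did 374 entries in all, and miR-215-5p did not.

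Small RNA was sequenced by AQ-seq, a small-RNA library method designed to lower ligation bias, in 12 libraries of HCT116 cells, each rescued with a form of DICER according to its label. Each of 6 forms had 2 libraries: wild type (WT), R821E, R821A, ΔPAZ helix, E5 and A5. The names R821E and R821A denote glutamate or alanine in place of an arginine, and ΔPAZ helix denotes the loss of a PAZ-domain helix. The sources used here do not give the meaning of E5 and A5, the DICER that cells held before rescue, the way the rescue was introduced or whether lines were single clones. The labels do not state whether the 2 libraries of a group are separate cultures; if they are not, the p-values reflect technical spread alone. DICER protein and mRNA were not measured in these files, so the labels could not be checked against them.

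DICER cuts the loop off a precursor hairpin and releases a duplex of a 5p and a 3p strand, of which AGO proteins usually keep a single strand as guide. p53 activates transcription of the miR-34a gene and of both clusters that hold miR-194. miR-34a-5p represses genes of the cell cycle and of survival such as CDK6, MET and BCL2, while miR-192-5p and miR-215-5p share their seed and repress regulators of the cell cycle as well as MDM2. Every miRNA of the set still needs DICER after it is transcribed, so the protein that differs between the groups acts after the p53-dependent step. Mature miRNAs alone do not tell transcription and processing apart.

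The mature strands are shown because their likeness decides which entries can be read singly. They were taken from RefSeq (GRCh38.p14), which held all 5, and the seed, bases 2 to 8 from the 5′ end, is in capitals:
miR-34a-5p: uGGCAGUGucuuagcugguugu
miR-34a-3p: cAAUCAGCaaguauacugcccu
miR-192-5p: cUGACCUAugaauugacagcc
miR-215-5p: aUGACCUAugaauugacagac
miR-194-5p: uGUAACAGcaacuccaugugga
miR-192-5p and miR-215-5p share the seed UGACCUA and are identical at 19 of 21 positions. Counted from the 5′ end, the differences from miR-192-5p to miR-215-5p are C1A and C20A. The sources used here do not say how reads that fit both were assigned and how many there were was not measured here. Among entries with a RefSeq sequence, the miR-34a-5p seed GGCAGUG also occurs in miR-449a and miR-449b-5p, which had 213 and 87 counts over the 12 libraries against 10241 for miR-34a-5p. The sequence of miR-34c-5p, its paralogue, was not in the table used.

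The hairpins are shown as annotated, with flanking bases beyond the part on which DICER acts and the annotated mature strands in capitals:
MIR34A: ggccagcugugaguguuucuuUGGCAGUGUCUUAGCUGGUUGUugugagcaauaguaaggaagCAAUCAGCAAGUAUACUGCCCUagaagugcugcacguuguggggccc
MIR192: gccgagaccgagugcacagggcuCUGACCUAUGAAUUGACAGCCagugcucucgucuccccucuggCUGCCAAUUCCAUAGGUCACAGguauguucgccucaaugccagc
MIR194-2: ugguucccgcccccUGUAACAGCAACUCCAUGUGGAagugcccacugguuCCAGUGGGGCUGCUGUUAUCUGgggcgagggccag
MIR194-1: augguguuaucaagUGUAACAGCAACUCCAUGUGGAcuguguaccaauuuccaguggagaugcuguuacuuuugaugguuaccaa
MIR215: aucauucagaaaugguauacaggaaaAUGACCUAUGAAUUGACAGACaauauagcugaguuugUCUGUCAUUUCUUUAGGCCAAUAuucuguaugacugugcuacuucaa
All 5 lie on the minus strand of GRCh38, and their spans are the same in GENCODE 29. MIR34A is at chr1:9151668-9151777, within exon 2 of the noncoding gene MIR34AHG. MIR192 at chr11:64891137-64891246 and MIR194-2 at chr11:64891355-64891439 lie 108 bases apart in exon 2 of the noncoding gene MIR194-2HG. MIR215 at chr1:220117853-220117962 and MIR194-1 at chr1:220118157-220118241 lie near each other, opposite in strand to an intron of IARS2. The miR-194-5p strand is the same in both of its hairpins, so its count cannot be divided between the chromosomes. From the first base of the 5p strand to the last of the 3p strand, the hairpins measure 64 bases (MIR34A), 65 (MIR192), 58 (MIR194-2) and 60 (MIR215), and the median of 739 human hairpins with both strands annotated is 60. The stretch between the strands is longest in MIR192, at 22 bases, and shortest in MIR194-2, at 14 (median 16).

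The libraries held 144067 to 255296 miRNA counts, with 617 to 804 entries detected, and levels are in CPM (counts scaled to 1e6 miRNA counts) adjusted with trimmed-mean (TMM) factors, on which scale 3 counts correspond to 10.4 to 25.9 CPM. These factors set each miRNA against most of the rest, and some levels are also given per 1000 counts of the 30 spike-in entries. miRNA counts per spike-in count were 24.2 ± 2.49 (SD, n = 2) in WT and 14.3 ± 1.38 in R821E. The median log2 fold change of all tested entries in R821E was -0.10 with TMM scaling and -1.38 relative to spike-ins. In such bulk samples fewer cells and less miRNA per cell cannot be told apart. The sources used here give neither the spike-in amount nor when it was added. miR-21-5p, the most abundant entry, made up 56.0% ± 2.84 of miRNA counts in R821E and 40.4% ± 3.89 in WT. Epithelial miR-200b-3p had 1068 CPM on average over the libraries, whereas miR-200c-3p and miR-141-3p, also epithelial, had 34.9 and 27.8 CPM. miR-31-5p, listed with them and miR-21-5p for a colorectal epithelial line, averaged 32622 CPM. Among markers of other cell types, hepatocyte miR-122-5p, muscle miR-133a-3p, neuronal miR-124-3p and leukocyte miR-223-3p had 14, 1, 1 and 9 counts over all libraries. On the same list, however, miR-145-5p (smooth muscle), miR-142-3p (leukocytes), miR-126-3p (endothelium) and miR-451a (erythroid cells) averaged 449, 276, 253 and 171 CPM. miR-143-3p, also on that list, averaged 27.9 CPM. The summed CPM of 9 such markers was 776 to 855 in R821E and 1095 to 1429 in WT. On the TMM scale 3 of the 5 tested fell in R821E and 1 rose, where 24.1% and 23.8% of all tested entries did, and their part in the results below was not tested.

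miR-34a-5p was by far the most abundant of the set and ranked 40th of all miRNA entries over the 12 libraries. It had 4113 and 3769.6 CPM in the WT libraries, 4006 and 4215 in E5, and 3711 and 3716 in A5. It had 4158 and 3964 CPM in ΔPAZ helix, 3879.7 and 4033 in R821A, and 3463 and 3101 in R821E. Both R821E libraries lay below all the others, and the E5, ΔPAZ helix, R821A and WT values overlapped. Ordered by mean level, the groups ran E5, ΔPAZ helix, R821A, WT, A5 and R821E, and the libraries of neighbours did not overlap only between WT and A5 and between A5 and R821E. miR-34a-5p ranked 36th to 39th among miRNA entries in these groups and 45th in R821E.

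Against WT, miR-34a-5p did not pass the test in any mutant on the TMM scale. The log2 fold change in R821E was -0.26 ± 0.126 (SE; adjusted p = 0.0977 by edgeR's quasi-likelihood test with Benjamini-Hochberg adjustment), with a 95% interval of -0.53 to 0.01. With total counts as the scale it was -0.81 (edgeR, adjusted p = 3.09e-04). The share of all entries that passed with total counts is not given here, so that call is not read as a result about miR-34a-5p. On the TMM scale 47.9% of all tested entries passed in R821E against WT, 23.8% higher and 24.1% lower. The fold changes were 0.01 ± 0.125 in R821A, 0.06 ± 0.125 in E5, -0.09 ± 0.125 in A5 and 0.04 ± 0.125 in ΔPAZ helix, and their 95% intervals together ran from -0.35 to 0.33. Of these 5 values, the 3 above 0 were below it on the spike-in scale and, for the same 3, with total counts as the scale. Of all tested entries, 3.21% passed in R821A, 9.09% in E5, 0.267% in A5 and 0.267% in ΔPAZ helix.

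Relative to the spike-ins, miR-34a-5p was lower than WT in R821E, E5 and A5. WT libraries had 106 and 104 counts per 1000 spike-in counts, against 37.9 and 33.3 in R821E. E5 had 71.7 and 73.5, A5 70.3 and 73.5, ΔPAZ helix 84.6 and 74.2, and R821A 76.4 and 91.3, so every mutant library lay below both WT libraries on this scale. The log2 fold change was -1.56 ± 0.155 in R821E (edgeR, adjusted p = 1.74e-06), -0.53 ± 0.151 in E5 (adjusted p = 0.0207) and -0.54 ± 0.151 in A5 (adjusted p = 0.0331). It was -0.40 ± 0.151 in ΔPAZ helix (adjusted p = 0.0928) and -0.32 ± 0.151 in R821A (adjusted p = 0.256). The median of all tested entries moved in the same way on this scale, by -1.38 in R821E, -0.56 in E5, -0.46 in A5, -0.45 in ΔPAZ helix and -0.35 in R821A. On the spike-in scale 60.4% of all tested entries were lower in R821E, 27.3% in E5, 14.7% in A5, 13.1% in ΔPAZ helix and 4.28% in R821A.

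**Figure D1:**
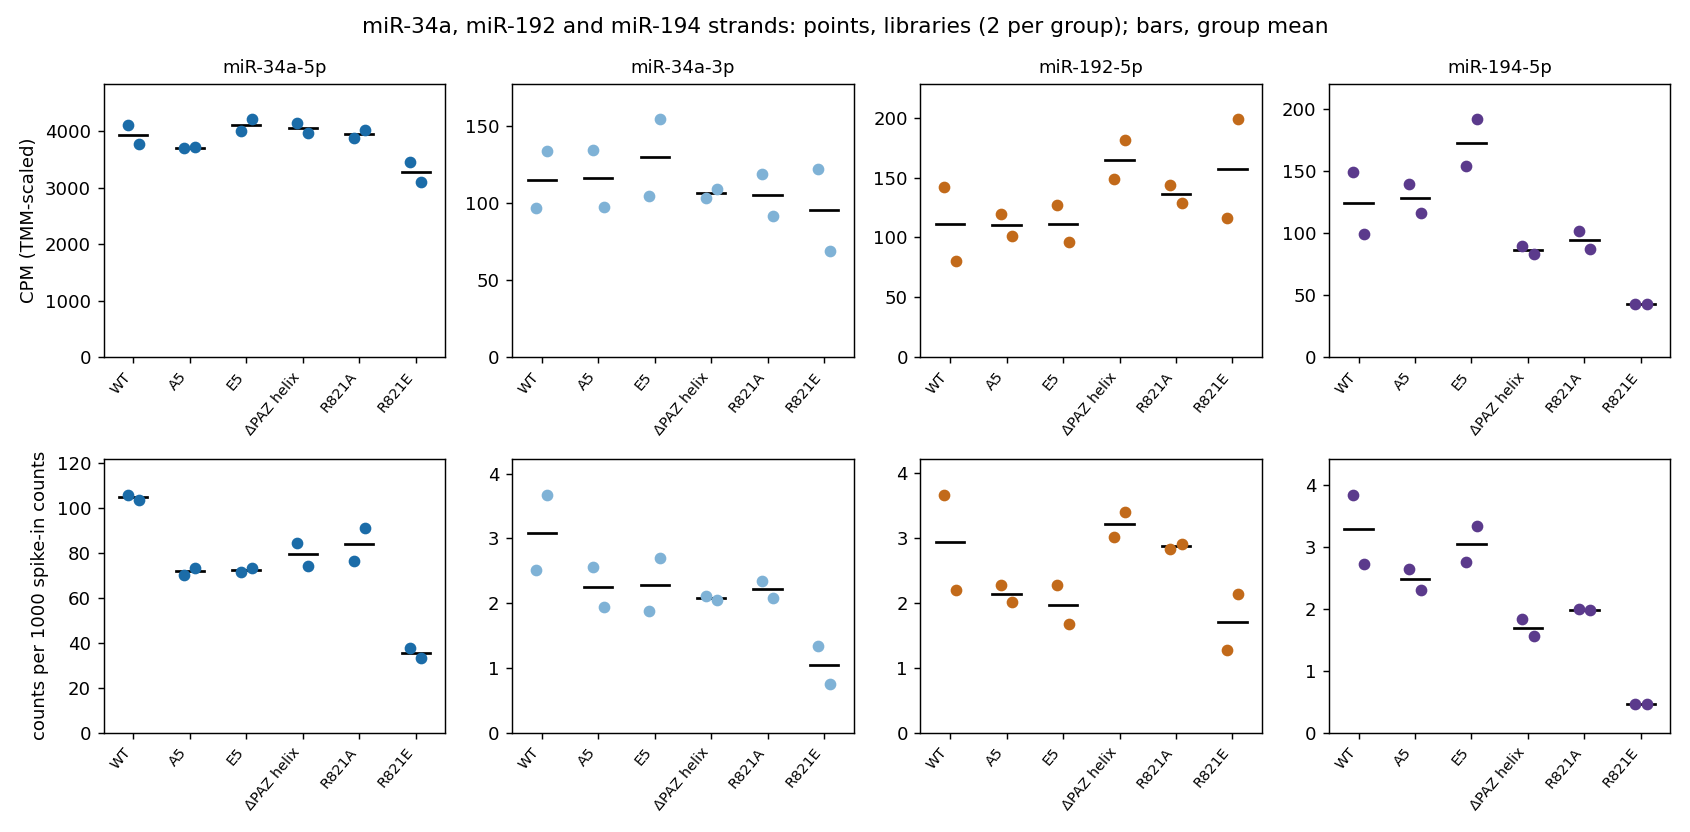
Levels of miR-34a-5p, miR-34a-3p, miR-192-5p and miR-194-5p in each library, in TMM-scaled CPM (top) and in counts per 1000 spike-in counts (bottom), by DICER group. Points are libraries and bars are group means of 2. miR-34a-5p in R821E stands at 3463 and 3101 CPM, below all other libraries, and miR-194-5p in R821E at 42.8 and 43.2 CPM.

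miR-34a-3p, the strand that is usually discarded, was detected in every library at 8 to 37 counts, and averaged 111 CPM. WT libraries had 97.1 and 134 CPM and R821E libraries 122 and 69.1 CPM, so the groups overlapped. The log2 fold changes against WT were -0.22 ± 0.382 in R821E, -0.11 ± 0.346 in R821A, 0.19 ± 0.345 in E5, 0.00 ± 0.360 in A5 and -0.11 ± 0.355 in ΔPAZ helix. None passed (edgeR, adjusted p = 0.650 in R821E), and the 95% interval in R821E ran from -1.04 to 0.60, so a change of up to about that size was not detectable at this depth. On the spike-in scale the E5 and A5 values were -0.41 and -0.46, and R821E alone passed, at -1.51 ± 0.376 (edgeR, adjusted p = 0.00310).

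The balance between the miR-34a strands did not differ between R821E and WT beyond the spread of the libraries. Many other hairpins shifted in R821E, but the spread was too wide to tell miR-34a from the typical hairpin. The log2 ratio of 5p to 3p counts, in which scaling cancels, was 5.38 and 4.80 in the WT libraries and 4.79 and 5.40 in the R821E libraries. Each pair thus spans the same range. The shift was 0.01 ± 0.316 (SE; limma, adjusted p = 0.983). Of 69 hairpins averaging 20 counts or more in each strand, 30 shifted toward 5p and 9 toward 3p, 56.5% in all. The median shift over the 69 was 0.40, and the SE of the miR-34a shift is too large to set 0.01 apart from it. Shifts against WT were 0.12 in R821A, -0.10 in E5, -0.10 in A5 and 0.14 in ΔPAZ helix, none of which passed (limma, adjusted p from 0.849 to 0.990), and 0.00%, 4.35%, 0.00% and 0.00% of hairpins did in these mutants. Each of these shifts changed sign when some single library was left out, and the R821E shift also with a pseudocount of 1.

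miR-194-5p has a hairpin in each cluster. Of the set, it alone passed the test against WT on the TMM scale, and it did so in R821E. In that comparison 24.1% of all tested entries passed as lower and 23.8% as higher. WT libraries had 43 and 26 counts, E5 28 and 46, A5 28 and 31, ΔPAZ helix 20 and 16, R821A 29 and 19, and R821E 7 and 5. As CPM, WT had 149 and 99.2, E5 155 and 191.97, and A5 139.6 and 117. They were 90.0 and 83.0 CPM in ΔPAZ helix, 102 and 87.3 in R821A, and 42.8 and 43.2 in R821E. The R821E libraries were the lowest of all 12 and did not overlap with any other group. E5 was highest and did not overlap with WT or A5, while A5, WT, R821A and ΔPAZ helix each overlapped with the next in that order.

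In R821E, miR-194-5p fell by 1.52 ± 0.395 on the log2 scale against WT (SE; edgeR, adjusted p = 0.00629), which is 2.88-fold, with a 95% interval from -2.37 to -0.68. On the spike-in scale the log2 fold change was -2.80 ± 0.369 (edgeR, adjusted p = 1.85e-05), beyond the median of -1.38. The call rests on few counts, since the R821E libraries held 12 in all. It was lost without WT replicate 1 (-1.15, edgeR adjusted p = 0.0609) or without R821E replicate 1 (-1.49, edgeR adjusted p = 0.0573). Among 374 tested entries, miR-194-5p had the 34th lowest fold change in R821E. It is a 5p strand, and 28 of 174 tested 5p entries fell in R821E against 56 of 148 3p entries.

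In the other mutants miR-194-5p did not pass the test against WT, although the libraries of E5 lay above and those of ΔPAZ helix below both WT libraries. The log2 fold change was 0.48 ± 0.297 in E5 (edgeR, adjusted p = 0.385), 0.03 ± 0.304 in A5 (adjusted p = 0.9997), -0.39 ± 0.311 in R821A (adjusted p = 0.741) and -0.52 ± 0.323 in ΔPAZ helix (adjusted p = 0.526). The 95% intervals were -0.16 to 1.12, -0.62 to 0.68, -1.06 to 0.28 and -1.22 to 0.17, which leave room for changes in either direction. E5 exceeded A5 by 0.45 ± 0.302, which did not pass (edgeR, adjusted p = 0.636); between these mutants 0 of 374 entries passed, also by DESeq2, and 36 had an unadjusted p under 0.05. The E5 and A5 values were below 0, at -0.10 and -0.42, on the spike-in scale, and A5 also with total counts.

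In direct comparisons of R821E with these mutants, the miR-194-5p call held under all alternatives only against E5, the group with the highest mean. Glutamate and alanine at the same residue were compared directly, and miR-194-5p was lower with glutamate by a log2 difference of -1.13 ± 0.411 (edgeR, adjusted p = 0.0397), where 41.4% of all tested entries passed, 19.5% of all being lower. This call was lost with DESeq2 (adjusted p = 0.130), with limma-voom (adjusted p = 0.0682), without the filter (adjusted p = 0.104) and without any single library of the 4 (edgeR, adjusted p from 0.0794 to 0.173). Against E5 the difference was -2.01 ± 0.389 (edgeR, adjusted p = 0.00281), and it kept its call under all 12 alternatives. Against A5 it was -1.56 ± 0.400 (edgeR, adjusted p = 0.0118), lost without any single library of the 4. Against ΔPAZ helix it was -1.003 ± 0.423 and did not pass (edgeR, adjusted p = 0.0912). In these 3 comparisons, added after the data were seen, 30.2%, 32.1% and 29.7% of all tested entries passed, and 13.9%, 17.9% and 14.7% were lower. On the spike-in scale 3 of the 4 tested strands were lower in R821E than in R821A, E5, A5 and ΔPAZ helix alike, where 48.9%, 36.4%, 44.4% and 43.6% of all entries were. The exception was miR-192-5p in the first 3 comparisons and miR-34a-3p against ΔPAZ helix.

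**Figure D2:**
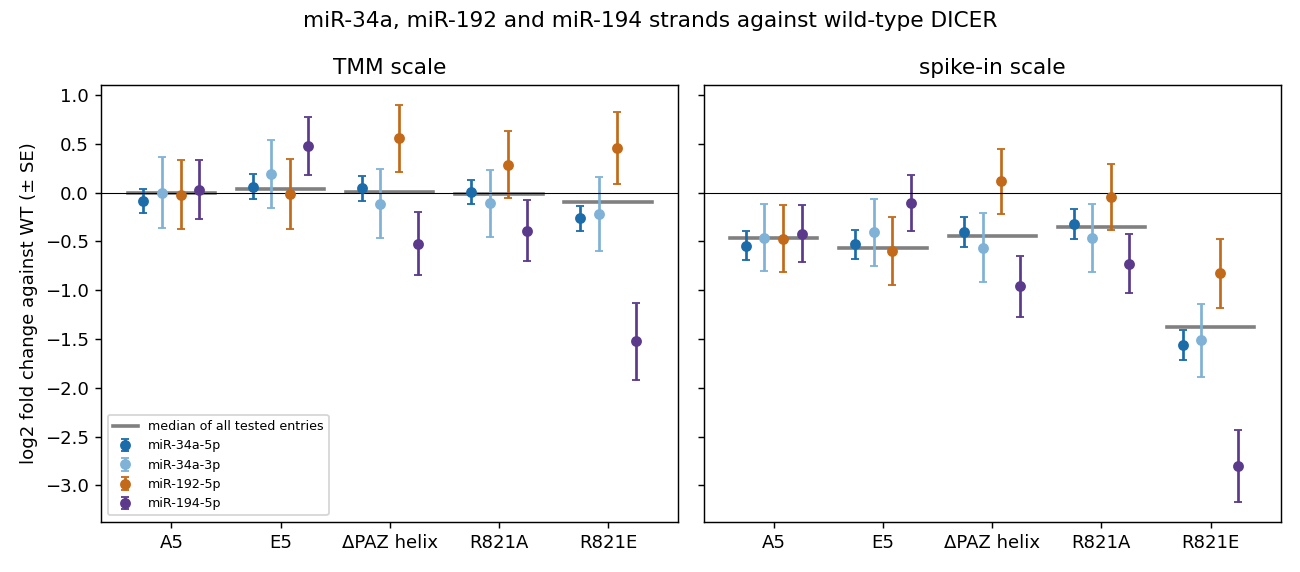
Log2 fold change against WT (± SE from the fit over 12 libraries) for the 4 tested strands in each mutant, on the TMM scale (left) and the spike-in scale (right). Grey bars give the median of all 374 tested entries. miR-194-5p in R821E lies at -1.52 and -2.80, while miR-34a-5p in R821E lies at -0.26 and -1.56, near the grey bar in both panels.

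miR-192-5p shares the chromosome 11 transcript with a miR-194 hairpin, and did not pass the test in any mutant. The libraries had 41 and 21 counts in WT and 19 and 23 in R821E. As CPM these were 142 and 80.1 in WT and 116 and 199 in R821E, and the pairs overlapped. E5 had 127 and 96.0 CPM, A5 119.7 and 102, ΔPAZ helix 148 and 182, and R821A 144 and 129. By mean level the order was ΔPAZ helix, R821E, R821A, E5, WT and A5, and of neighbours only R821A and E5 did not overlap.

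The log2 fold change of miR-192-5p against WT was 0.46 ± 0.366 in R821E (edgeR, adjusted p = 0.322), with a 95% interval from -0.33 to 1.24. It was 0.56 ± 0.344 in ΔPAZ helix (adjusted p = 0.526), 0.29 ± 0.343 in R821A (adjusted p = 0.872), -0.02 ± 0.359 in E5 (adjusted p = 0.982) and -0.02 ± 0.355 in A5 (adjusted p = 0.9997). Neither TMM nor spike-in scaling gave a call against WT, and the R821E value was -0.09 with library totals and -0.83 relative to spike-ins (edgeR, adjusted p = 0.0567). The direction for miR-192-5p in R821E thus depended on the scale, and on the spike-in scale it was lower in R821E than in ΔPAZ helix (-0.94 ± 0.350, edgeR adjusted p = 0.0425). The R821A value was also below 0 on the spike-in scale, at -0.05.

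The ratio of miR-194-5p to miR-192-5p within a library needs no scaling, although miR-194-5p counts may come from either of its hairpins. It was 1.05 and 1.24 in the WT libraries, 1.22 and 2.00 in E5, and 1.17 and 1.148 in A5. It was 0.707 and 0.679 in R821A, 0.606 and 0.457 in ΔPAZ helix, and 0.368 and 0.217 in R821E. All 6 libraries of R821A, ΔPAZ helix and R821E were below 1, and all 6 libraries of WT, E5 and A5 were above it. The mean log2 ratio differed from WT by -1.92 in R821E, -1.09 in ΔPAZ helix, -0.70 in R821A, 0.45 in E5 and 0.02 in A5. An exact two-sided permutation test of 2 libraries against 2 cannot go below p = 0.33, and gave p = 0.33 for R821E, ΔPAZ helix and R821A, so these single pairs cannot pass by it. Among the 6 groups together the log2 ratio differed by an exact permutation test over the 10395 ways to pair the 12 libraries (p = 0.00058), a test added after the data were seen, which does not say which groups differ. Of the counts of both strands pooled by group, miR-194-5p made up 52.7% in WT (exact Clopper-Pearson 95% interval 43.8% to 61.5%, 131 counts), 34.6% in ΔPAZ helix (25.6% to 44.6%), 41.0% in R821A (32.0% to 50.5%) and 22.2% in R821E (12.04% to 35.6%, 54 counts). Reads amplified by PCR and lacking molecular identifiers are not independent molecules, so such intervals and limits cover only counting error. The pooled interval of R821E lies wholly below that of WT, but pooling leaves out the spread between libraries. By library, the interval was 11.57% to 47.79% in R821E replicate 1 and 6.06% to 36.89% in R821E replicate 2. It was 40.04% to 62.26% in WT replicate 1 and 40.12% to 69.83% in WT replicate 2. R821E replicate 1 thus overlapped with both WT libraries, and R821E replicate 2 with neither.

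**Figure D3:**
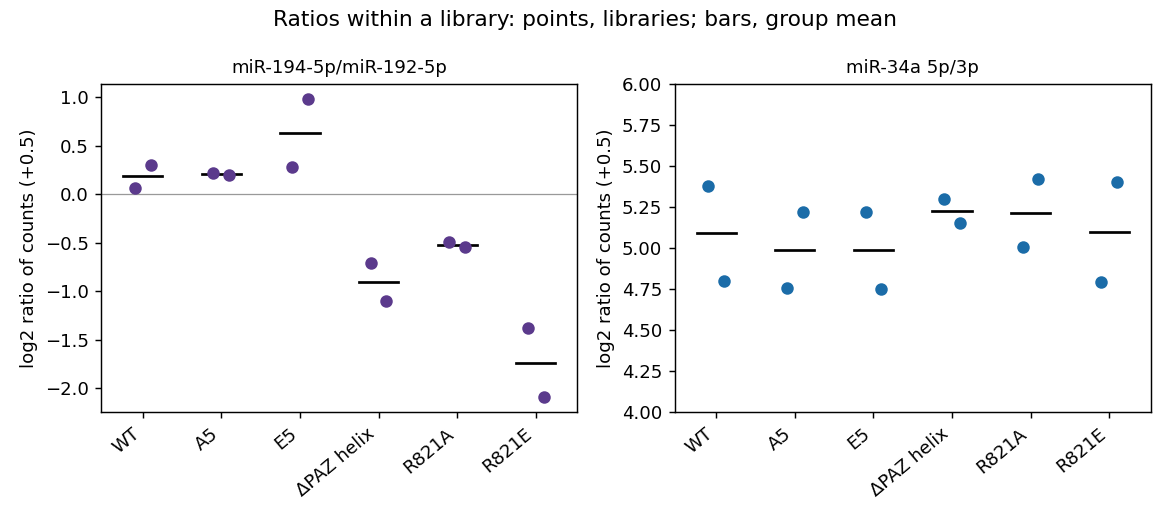
Log2 ratio of miR-194-5p to miR-192-5p (left) and of the miR-34a 5p to 3p strand (right) in each library, with 0.5 added to each count. Points are libraries, bars are group means of 2, and the right axis range starts at 4. The miR-194-5p to miR-192-5p ratio is below 0 in R821A, ΔPAZ helix and R821E and lowest in R821E, whereas the miR-34a ratio lies between 4.75 and 5.42 in every library.

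miR-215-5p was close to absent. It had 5 counts over the 12 libraries, 2 in WT, 1 each in E5, A5 and ΔPAZ helix, and 0 in R821E and R821A. A count of 0 allows up to 10.7 CPM in R821E and 5.96 CPM in R821A on the TMM scale, taking 3 counts over both libraries, so a difference from WT was not detectable at this depth. The discarded strands miR-192-3p and miR-194-3p had 10 and 3 counts over all libraries and were not tested either. miR-215-5p had no more than 2 counts in any library, while miR-194-5p, with a hairpin in the same cluster, had 5 to 46.

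Tested for any difference among the 6 groups, 33.4% of all entries passed, and of the set miR-194-5p alone did (edgeR, adjusted p = 0.0164). The adjusted p was 0.290 for miR-34a-5p, 0.520 for miR-192-5p and 0.925 for miR-34a-3p (edgeR). For miR-194-5p it rose above the threshold without R821E replicate 1 (0.103), without R821E replicate 2 (0.0841) or without E5 replicate 2 (0.0574, edgeR adjusted p in each).

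**Figure D4:**
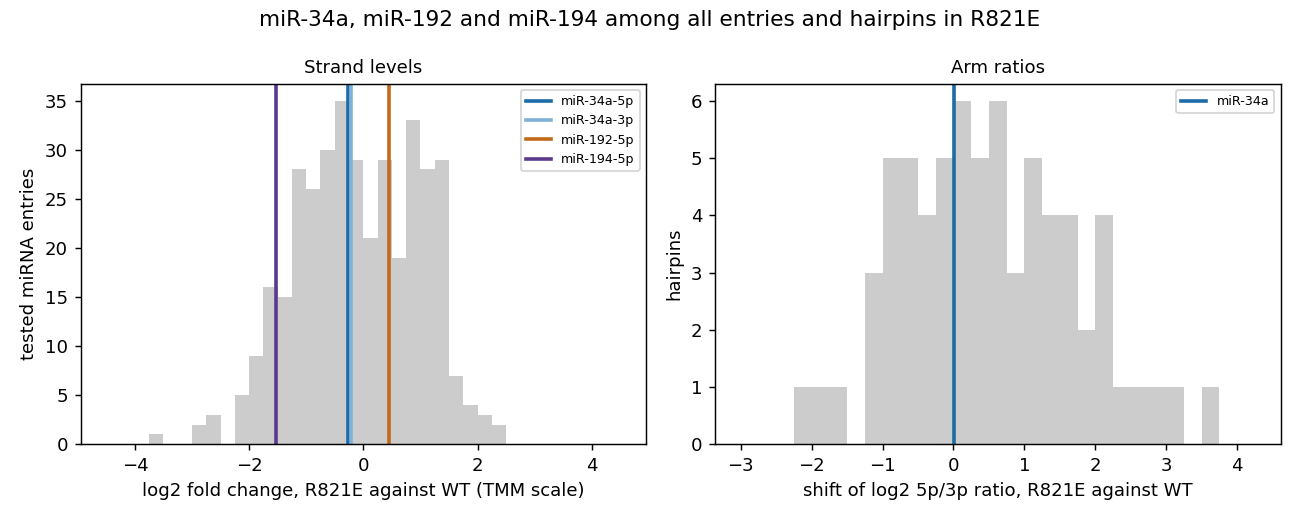
Left, log2 fold changes of all 374 tested entries in R821E against WT on the TMM scale (grey) with the 4 tested strands as lines. Right, shifts of the log2 5p/3p ratio for 69 hairpins with miR-34a as a line. miR-194-5p lies in the lower tail at -1.52. The miR-34a shift of 0.01 lies below the median shift of 0.40 but, with an SE of 0.316, cannot be told from it.

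The entries whose levels followed each strand most closely over the 12 libraries were taken by the root mean square difference of log2 CPM, each centred on its own mean. For miR-34a-5p these were miR-26a-5p (0.113), miR-30b-5p (0.114) and miR-30e-5p (0.124), against a median of 0.460 over all tested entries. For miR-34a-3p they were miR-30e-3p (0.200), miR-378a-5p (0.226) and miR-30e-5p (0.226), against a median of 0.507. miR-192-5p was nearest to miR-182-5p (0.267), miR-27b-5p (0.291) and miR-1296-5p (0.291), with a median of 0.547. For miR-194-5p, a 5p strand, all 3 nearest entries were 3p strands: miR-210-3p (0.255), miR-19b-3p (0.285) and miR-27a-3p (0.301), against a median of 0.715. Their log2 fold changes in R821E against WT were -1.31 for miR-210-3p, -1.01 for miR-19b-3p and -1.52 for miR-27a-3p, which the choice by likeness over the same libraries largely fixes. Entries that share libraries share depth, so these distances are a description.

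Other miRNAs linked to p53 were read from a list of 20 names, of which 19 were in the tables and 13 tested. In R821E, 5 rose and 3 fell against WT on the TMM scale, where 23.8% and 24.1% of all tested entries did, with a median of 0.32 over the 13 and -0.10 over all tested entries, and on the spike-in scale 0 were higher and 8 lower, the latter beside 60.4% of all entries. The strands that rose were miR-16-5p (0.67), miR-16-1-3p (0.99) and miR-15a-5p (1.01), whose maturation is aided by p53 or which repress BCL2, with miR-30d-5p (0.93) and miR-1246 (1.34), a p53 target. On the spike-in scale all of these but miR-1246 (0.04) were below 0, and miR-16-5p passed as lower (-0.63). miR-25-3p fell by 2.70 on the log2 scale, miR-107 by 1.95 and miR-145-5p by 0.84. miR-34c-5p, the nearest relative of miR-34a-5p, averaged 61.5 CPM and did not pass, at 0.37 ± 0.441 (edgeR, adjusted p = 0.520), while miR-34b-5p had 12 counts over all libraries. In the other mutants 1 of the 13 fell in R821A (2.94% of all entries did), 1 rose and 1 fell in E5 (2.41% and 6.68%), 0 passed in A5 and 1 fell in ΔPAZ helix (0.267%). The one that fell was miR-25-3p each time, by 0.76 in R821A, 1.02 in E5 and 0.92 in ΔPAZ helix on the log2 scale, and the one that rose in E5 was miR-16-1-3p (0.85, and 0.26 on the spike-in scale).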

How the data were processed

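The authors deposited whole-number counts for each entry, not normalised. Per the submitters' processing notes, cutadapt, BWA and bedtools were used, with hg38 and mm10 as builds; the sources used here give no versions or roles and do not say how reads fitting several entries were treated. Library depth was 144067 to 255296 miRNA counts. The 30 spike-in entries were left out of totals and tests, and served only as a second scale.

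All 12 libraries entered 1 fit in edgeR 4.0.16 under R 4.3.3 (robust quasi-likelihood, TMM factors, filterByExpr by group), which left 6 residual degrees of freedom. Benjamini-Hochberg adjustment ran over all 374 tested entries, with a threshold of 0.05. Strand ratios were tested with limma 3.58.1 (trend, robust) on log2 of counts plus 0.5. On simulated counts of 374 entries for R821E against WT, 57.6% of log2 changes of 1 and 90.7% of log2 changes of 2 were recovered. These rates average over all levels of abundance, with a spread set by abundance alone. They therefore do not give the recovery for the low-count strands of the set. Alternatives were other scalings, no filter, DESeq2 1.42.0, limma-voom, a replicate block, fewer libraries in the fit and single libraries left out. Replicates differed by more than sampling noise (chi-square per degree of freedom 3.98 to 29.4). Each library was counted as a sample, although this excess does not show that the 2 libraries of a group are separate cultures. Named entries were the 5 strands, their partner strands, the 3 nearest entries of each and a list of p53-linked miRNAs. These members and lists were chosen with earlier results of these data known. Sequences came from RefSeq, where 1179 of 1346 entries matched.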

Additional observations from a re-analysis of the deposited data

How the results depend on the processing

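The log2 fold change of miR-194-5p in R821E against WT stayed negative under all 12 alternatives, from -2.80 to -1.15. The number of tested strands of the set that passed in R821E against WT was 1, and it became 2 with library totals and 3 with spike-ins; the same values, 2 and 3, replaced 1 against R821A, 1 against E5 and 1 against A5, and 0 against ΔPAZ helix, where fitting only the libraries compared also gave 2. Against R821A it was 0 with no filter, DESeq2 or limma-voom. E5 and A5 against WT each gave 1 in place of 0 on the spike-in scale, and the test among the 6 groups gave 2 in place of 1 with library totals and with spike-ins. Of all tested entries, 47.9% passed in R821E against WT with TMM factors, and 60.4% were lower with spike-ins. With spike-ins 36.4% to 48.9% were lower in R821E against the other mutants, 27.3% in E5 and 14.7% in A5 against WT. The share with library totals is not given here, so these counts are not read as a result about the set. Leaving out single libraries gave 0 to 1 for R821E against WT and for the test among the 6 groups, 0 to 0 against R821A and against A5, and 1 to 1 against E5. Values near 0 changed sign. With library totals, miR-192-5p was -0.092 in R821E, -0.35 in R821E against R821A, -0.018 in E5 against A5, and miR-34a-5p was -0.023 in R821A, -0.040 in E5, -0.077 in ΔPAZ helix, and miR-34a-3p was -0.071 in A5, and miR-194-5p was -0.052 in A5. With spike-ins, miR-192-5p was -0.83 in R821E, -0.045 in R821A, -0.78 in R821E against R821A, -0.13 in E5 against A5, -0.23 in R821E against E5, -0.35 in R821E against A5, and miR-34a-5p was -0.32 in R821A, -0.53 in E5, -0.40 in ΔPAZ helix, and miR-34a-3p was -0.41 in E5, -0.46 in A5, and miR-194-5p was -0.10 in E5, -0.42 in A5. Without the filter, miR-34a-3p was -0.037 in A5, and miR-194-5p was -0.0085 in A5, and miR-192-5p was -0.017 in R821E against R821A. With DESeq2 size factors in edgeR, miR-192-5p was 0.026 in E5. By DESeq2, miR-192-5p was 0.031 in E5. By limma-voom, miR-192-5p was 0.018 in E5, 0.024 in A5, -0.0054 in E5 against A5, and miR-34a-3p was -0.0018 in A5. Fitting only the libraries compared, miR-34a-3p was -0.015 in A5, and miR-192-5p was -0.0064 in E5 against A5. Leaving out single libraries, miR-34a-3p ranged from -0.70 to 0.16 in R821E, -0.34 to 0.14 in R821A, -0.11 to 0.46 in E5, -0.22 to 0.25 in A5, -0.32 to 0.15 in ΔPAZ helix, -0.60 to 0.26 in R821E against R821A, -0.12 to 0.43 in E5 against A5, -0.71 to 0.16 in R821E against A5, -0.60 to 0.26 in R821E against ΔPAZ helix. Leaving out single libraries, miR-34a-5p ranged from -0.052 to 0.077 in R821A. Leaving out single libraries, miR-192-5p ranged from -0.052 to 0.77 in R821A, -0.36 to 0.46 in E5, -0.36 to 0.46 in A5, -0.17 to 0.56 in R821E against R821A, -0.19 to 0.21 in E5 against A5, -0.44 to 0.28 in R821E against ΔPAZ helix. Leaving out single libraries, miR-194-5p ranged from -0.22 to 0.36 in A5. The cause of these changes was not tested.

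The replicate number as a block gave -0.0010 for miR-34a-3p in A5 and changed no call of the set. Correlations between groups of the difference between replicates 1 and 2 ranged from -0.50 to 0.37, and 1 of 15 exceeded 0.1. Replicate numbers thus did not pair the libraries in the same way in all groups. A factor that crosses the replicate numbers was neither modelled nor tested, and the negative correlations leave room for it. The miR-34a strand ratio in R821E was -0.028 with a pseudocount of 1. Without single libraries that ratio ranged from -0.30 to 0.31 in R821E, -0.17 to 0.41 in R821A, -0.39 to 0.19 in E5, -0.39 to 0.19 in A5 and -0.15 to 0.43 in ΔPAZ helix, from -0.24 to 0.23 in E5 against A5, and for R821E from -0.42 to 0.19 against R821A, -0.19 to 0.42 against E5, -0.20 to 0.41 against A5 and -0.43 to 0.18 against ΔPAZ helix. The shift of the miR-194-5p to miR-192-5p ratio without single libraries was -2.28 to -1.56 in R821E, -1.29 to -0.89 in ΔPAZ helix, -0.82 to -0.59 in R821A, 0.09 to 0.80 in E5 and -0.09 to 0.14 in A5. The exact permutation p of that ratio among the 6 groups was 0.00058 with a pseudocount of 1 and 0.00029 to 0.0040 without single libraries.

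Counts over all entries depended on the settings. Against WT, E5 gave 34 calls, 19 with DESeq2, 22 with the block and 102 on the spike-in scale; R821A gave 12, and 2 without R821A replicate 1; A5 and ΔPAZ helix gave 1 each, and 55 and 49 on the spike-in scale. With only the 4 libraries compared these 4 mutants gave 0 calls. R821E gave 179, and 114 without R821E replicate 1. Depth limits miR-34a-3p, miR-192-5p and miR-194-5p, with 5 to 46 counts a library, and leaves miR-215-5p untested.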
